A study of Mus musculus with 6 samples.

Results

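Protein tyrosine phosphatases (PTPs) remove phosphate from tyrosine residues and so oppose the tyrosine kinases. In macrophages they set the threshold of signals from the M-CSF receptor, from Fc receptors and from cytokine receptors. Some are best known as brakes, such as SHP-1, which inhibitory receptors bring to the membrane. Others release Src family kinases from their inhibited state, such as CD45. The classical PTPs comprise cytosolic enzymes (gene names Ptpn) and transmembrane receptor-type enzymes (Ptpr). The small PRL phosphatases (Ptp4a) are tethered to membranes by a lipid group.

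The PTP genes were examined in bulk RNAseq of bone marrow-derived macrophages (BMDM) treated with IL17B. They were taken by gene symbol, as the rows named Ptpn or Ptp4a with a number or Ptpr with a letter. This gave 39 of the 16978 genes of the table: 16 cytosolic PTPs, 20 receptor-type PTPs and 3 PRL phosphatases. Ptpn20 and Ptprq, whose symbols would also fit the pattern, were not among these rows and were not analysed here. BMDM are macrophages grown from femoral marrow of wild type C57BL/6 mice with 25 ng/ml M-CSF, and they were collected on day 7. They were then given 200 ng/ml IL17B (3 libraries) or PBS as control (3 libraries) for 6 hours. The comparison asks how IL17B, a cytokine of the IL17 family, acts on macrophages. Neither the labels nor the methods say whether the 3 samples of a group came from separate mice or cultures. All p-values therefore reflect the variation among these libraries alone, and it may be technical in origin.

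The catalytic site shows what holds the family together. All classical PTPs and PRLs have a loop with a cysteine, which attacks the phosphate, followed by 5 residues and an arginine that binds it. The codons of the loop, including the histidine before the cysteine, were read from GENCODE M21 coding transcripts (GRCm38), which matched 38 of the 39 genes. The loops of 9 members are printed, chosen to show the forms that abundant members share and those of Ptpn23 and Ptprn, which depart from them, 5′ to 3′, with the cysteine and arginine codons in capitals.
Ptpn6: catTGCagcgctggcatcggcCGC
Ptpn11: cacTGCagcgctgggattggcCGG
Ptpn1: cacTGCagcgccggcatcgggAGG
Ptprc: cacTGCagtgctggtgttgggCGT
Ptprj: catTGCagtgctggggttggaAGG
Ptpn12: catTGCagtgcaggctgtggaCGA
Ptp4a2: catTGTgttgcaggattgggaAGG
Ptpn23: cacTGCagctctggggtgggcCGC
Ptprn: cacTGCagtgacggtgcagggAGG
The loop of Ptpn11 differs from that of Ptpn6 at 4 of 24 bases and that of Ptpn1 at 5, and all 3 encode the same 8 residues. Translated, 11 members share the Ptpn6 loop, and each spells it with different codons. Ptprr is the only one among them with a Ptpr name. Another form, which differs from Ptpn6 at 1 residue, is the first catalytic loop of 14 members, among them Ptprc, Ptpra, Ptprj, Ptpre and Ptpro. The PEST phosphatases (Ptpn12, Ptpn18 and Ptpn22) share a form of their own, and so do the 3 PRLs, whose form differs from Ptpn6 at 2 residues. Ptpn23 and the pair of Ptprn and Ptprn2 have forms of their own, and Ptprn is regarded as catalytically inactive. The members with the loop of Ptpn6 made up 32.6% ± 0.395 of the summed PTP level in IL17B-treated cells and 33.4% ± 0.989 in control cells. The 14 members with the form of Ptprc made up 40.2% ± 0.49 in IL17B-treated cells and 39.4% ± 0.795 in control cells (TPM as deposited, SD, n = 3 each).

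The libraries were of nearly equal depth, with 20271411 to 20593584 estimated counts in IL17B libraries and 20411273 to 20653322 in control libraries. All 20 macrophage markers were detected in each library. Their summed level was 71409 to 73340 TPM in IL17B libraries and 70413 to 72200 TPM in control libraries. Transcripts of hepatocytes set IL17B replicates 2 and 3 apart. The 22 hepatocyte markers summed to 442, 845.5 and 557 TPM in IL17B replicates 1, 2 and 3 and to 359, 377 and 429 TPM in control replicates 1, 2 and 3. The number of them detected ranged from 4 to 22 by library, so that in some libraries the sum came from few genes. All 22 had an unadjusted p under 0.05 by edgeR, each higher with IL17B, and none was called. Across all 13866 genes tested, edgeR called 0.0% at an adjusted p of at most 0.05, and 5.24% had an unadjusted p under 0.05 (2.96% higher and 2.28% lower with IL17B). DESeq2 called 6 genes higher and 0 lower, none of them a PTP.

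BMDM expressed a broad but uneven set of PTPs. Of the 39 genes, 24 had a mean of at least 1 TPM (a level scaled to transcript length and library size), 19 of at least 10 TPM and 10 of at least 50 TPM. Their summed level was 1689, 1612 and 1680 TPM in IL17B replicates 1, 2 and 3 and 1640, 1686 and 1625 TPM in control replicates 1, 2 and 3. Ptpn6, Ptprc, Ptp4a2 and Ptpra alone made up 55.8% ± 0.32 of this sum in IL17B-treated cells and 55.8% ± 0.70 in control cells. Receptor-type PTPs took 40.2% ± 0.482 with IL17B and 39.3% ± 0.758 in controls, cytosolic PTPs 43.8% ± 0.55 with IL17B and 44.8% ± 0.921 in controls, and PRLs 16.03% ± 0.223 with IL17B and 15.97% ± 0.428 in controls (SD, n = 3 each). In bulk RNA, fewer cells of a type and less RNA per cell cannot be told apart.

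**Figure D1:**
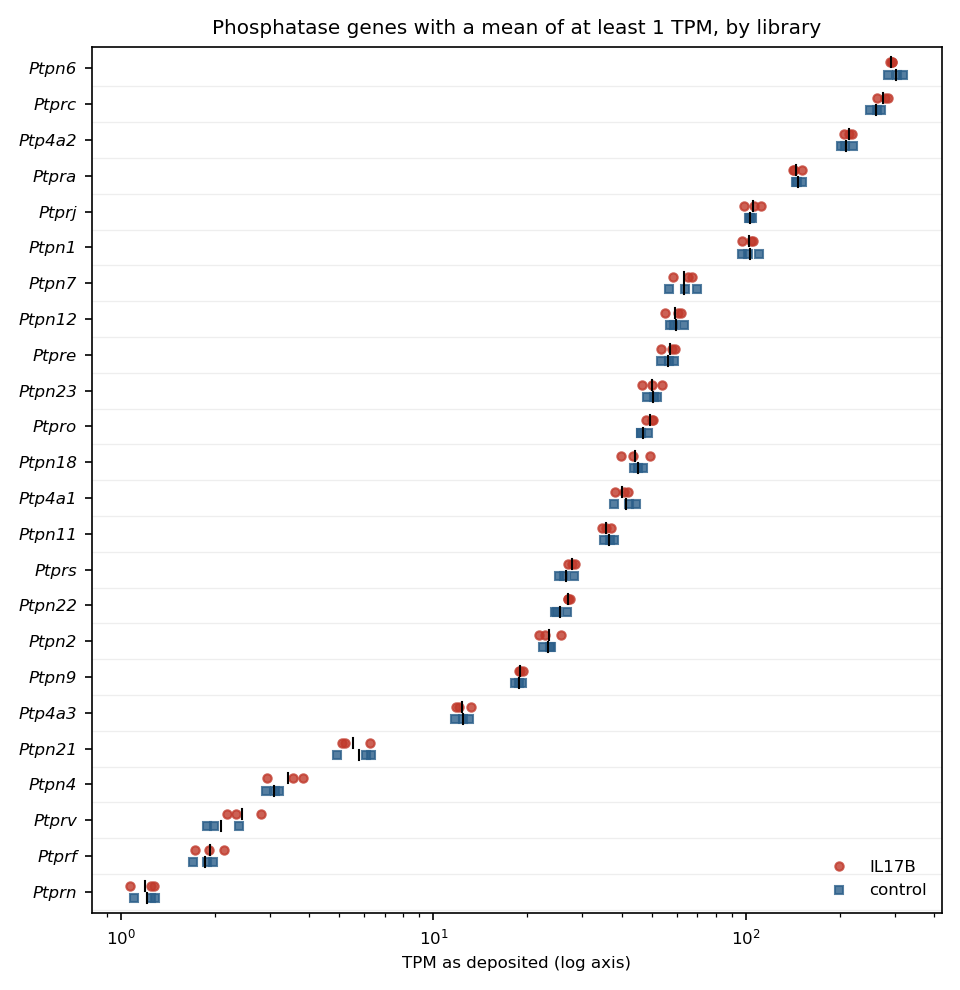
Level of the 24 PTP genes with a mean of at least 1 TPM, on a log axis, in each IL17B library (red circles) and each control library (blue squares), with a black bar at the mean of the 3 libraries. The order runs from Ptpn6 at a mean of 298 TPM to Ptprn at 1.203 TPM, and only the libraries of Ptpn22 do not overlap between the treatments.

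No PTP gene was called higher or lower after IL17B. Of the 39 genes, 32 had at least 15 counts over the 6 libraries and were tested, and edgeR's quasi-likelihood test called 0 of them, as it did of all genes. The smallest adjusted p of a member was 0.973 (Ptprv, by edgeR). None of the 32 had an unadjusted p under 0.05 by edgeR, DESeq2 or limma-voom, where 5.24% of all genes did by edgeR. The median log2 fold change, IL17B over control, was -0.009 over the 32 genes and 0.0 over all genes tested, with 15 positive and 17 negative. Complete separation of the treatments in normalised counts held for 2 of 32 (Ptprc and Ptpro, both higher with IL17B), against 9.92% of all genes tested (5.16% higher and 4.77% lower with IL17B).

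For these libraries, the data also limit how large a change could have been missed. An interval within 1.5-fold in both directions was found for 24 of the 32 tested members and 74.7% of all genes tested. For the 24 genes with at least 1 TPM, each 95% interval of the fold change lay within that limit, as it did for 91.7% of all tested genes of that level. For the 19 genes with at least 10 TPM the bounds ran from 0.852-fold to 1.17-fold. Their log2 fold changes lay between -0.06 and 0.09. For the 8 tested genes under 1 TPM the intervals were wider. The narrowest reached 0.591 and the widest 1.566 to either side on the log2 scale, and changes within a gene's interval are not excluded. These intervals rest on the spread between the 3 libraries of a treatment, which edgeR moderates toward a trend over all genes tested. Like the p-values, they reflect the variation among these libraries alone, which may be technical in origin.

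**Figure D2:**
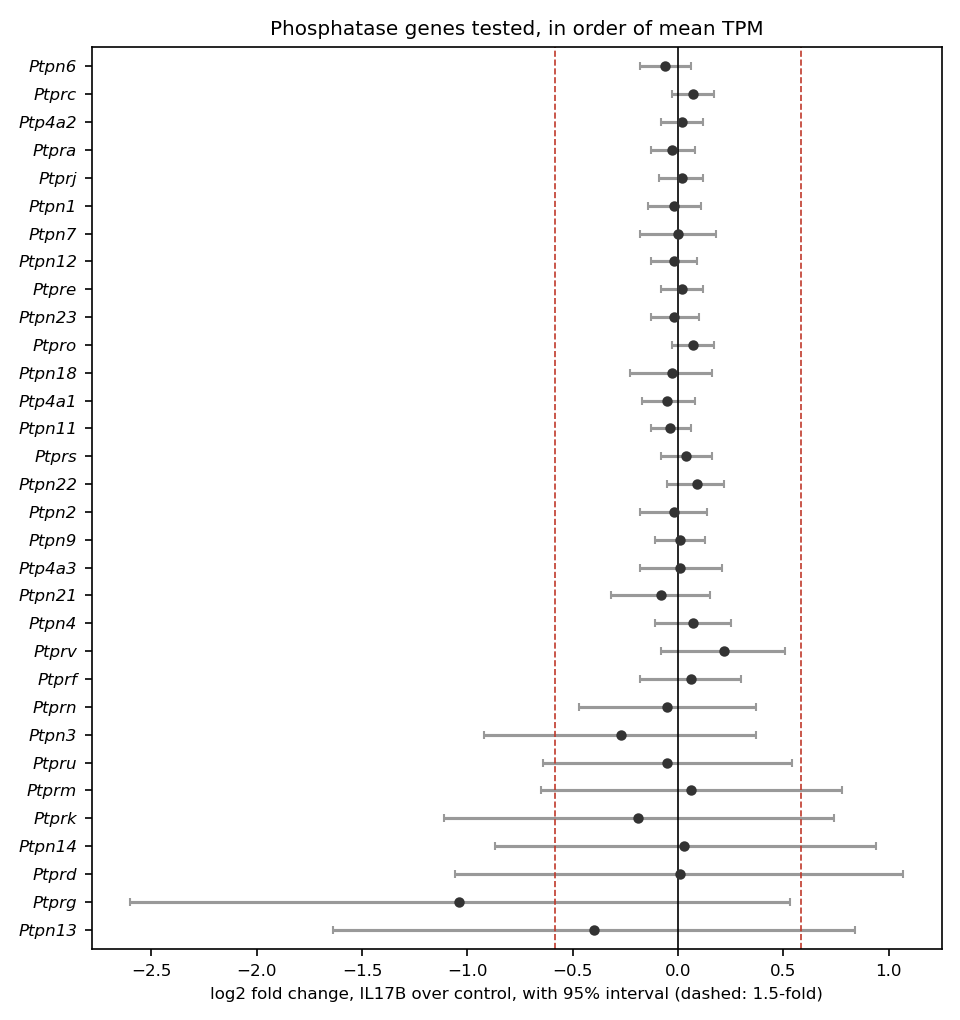
Log2 fold change of each of the 32 tested PTP genes, IL17B over control (points), with the 95% interval from edgeR (bars) and dashed lines at a 1.5-fold change, in order of mean TPM from top to bottom. All intervals include 0, and those of the 8 genes under 1 TPM at the bottom are the widest.

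Of the SH2 domain phosphatases, Ptpn6 encodes SHP-1, the main effector of inhibitory receptors in myeloid cells. It lies on chromosome 6 from 124720707 to 124738709 (GRCm38.p6). Its level was 294, 289.7 and 294 TPM in IL17B replicates 1, 2 and 3 and 319, 304 and 286 TPM in control replicates 1, 2 and 3. The IL17B libraries lay within the range of the controls, of which replicate 1 was the highest. The log2 fold change by edgeR was -0.06 with a SE of 0.05 and an adjusted p of 0.988, with an interval from 0.885-fold to 1.045-fold. Ptpn6 ranked above 96.7% of all genes tested in mean TPM.

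Ptpn11 encodes SHP-2, which has the same layout of domains but mostly promotes signalling from growth factor receptors to Ras. It lies on chromosome 5 from 121130533 to 121191397. It had 37.0, 34.6 and 35.7 TPM in IL17B libraries and 35.1, 37.8 and 36.7 TPM in control libraries, with overlapping ranges (edgeR log2 fold change of -0.04 with a SE of 0.04 and an adjusted p of 0.988). The ratio of Ptpn6 to Ptpn11 in TPM was 7.94, 8.37 and 8.23 in IL17B replicates 1, 2 and 3 and 9.10, 8.04 and 7.79 in control replicates 1, 2 and 3. The means of 8.18 ± 0.217 with IL17B and 8.31 ± 0.694 in controls (SD, n = 3 each) did not differ beyond their spread (p = 0.9, two-sided exact permutation test, which cannot go below 0.1 here). The difference of -0.128 turned to 0.266 without control replicate 1.

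CD45, encoded by Ptprc, is the most abundant PTP of the leukocyte surface and activates Src family kinases. Its gene lies on chromosome 1 from 138062859 to 138175756. It had 285, 264 and 278 TPM in IL17B replicates 1, 2 and 3 and 249.8, 272 and 262 TPM in control replicates 1, 2 and 3. In counts it was the highest PTP, at 13716, 13221 and 13623 in IL17B libraries and 12567, 13264 and 12896 in control libraries, whereas per transcript length Ptpn6 was higher. The ranges overlapped in TPM but not in counts per normalised library. The log2 fold change by edgeR was 0.07 with a SE of 0.05 and an adjusted p of 0.976, an interval from 0.98-fold to 1.13-fold.

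CD148, encoded by Ptprj on chromosome 2, acts on Src family kinases in macrophages together with CD45. It had 112, 98.8 and 106 TPM in IL17B libraries and 103.5, 105 and 102 TPM in control libraries. Its IL17B libraries ranged more widely than the controls and enclosed them (edgeR log2 fold change of 0.02 with a SE of 0.05 and an adjusted p of 0.993). Ptpro is of the same R3 class of receptor-type PTPs, and a short form of it is known from osteoclasts and other myeloid cells. It had 50.0, 48.1 and 50.4 TPM with IL17B and 46.1, 46.1 and 48.7 TPM in controls. In counts per normalised library each IL17B value lay above each control value, while in TPM the ranges overlapped (edgeR log2 fold change of 0.07 with a SE of 0.04 and an adjusted p of 0.976).

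Ptprv, also of the R3 class, had the largest positive log2 fold change among the tested PTPs. It encodes OST-PTP, known in mice from osteoblasts and Sertoli cells. It had 2.33, 2.18 and 2.81 TPM in IL17B replicates 1, 2 and 3 and 1.98, 1.89 and 2.39 TPM in control replicates 1, 2 and 3, so that control replicate 3 lay within the range of the IL17B libraries. The log2 fold change by edgeR was 0.22 with a SE of 0.13 and an adjusted p of 0.973. It was 0.33 without control replicate 3 and 0.11 without IL17B replicate 3, not called in either. The spans of Ptprv and Ptpn7 overlap by 738 bases on chromosome 1, from 135131838 to 135132575, and whether reads were shared there was not tested. Ptpn7, also called HePTP, removes phosphate from the MAP kinases Erk and p38. It had 65.1, 58.4 and 67.2 TPM in IL17B libraries and 69.8, 56.8 and 63.7 TPM in control libraries. The controls enclosed the IL17B libraries (log2 fold change -0.003, adjusted p = 1.0 by edgeR), and its sign turned under several other settings.

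The R4 class has the receptor-type PTPs with short outer domains. Ptpra, on chromosome 2, removes the inhibitory phosphate of Src. It had 143, 141 and 151 TPM in IL17B libraries and 145, 152 and 145 TPM in control libraries, with overlapping ranges (edgeR log2 fold change of -0.03 with a SE of 0.05 and an adjusted p of 0.99). Ptpre, known as a regulator of osteoclast adhesion, had 58.1, 53.7 and 59.4 TPM with IL17B and 53.6, 58.8 and 56.9 TPM in controls. Its ranges were almost the same (edgeR log2 fold change of 0.02 with a SE of 0.04 and an adjusted p of 0.993).

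Ptpn1 encodes PTP1B, which sits on the endoplasmic reticulum and dephosphorylates the insulin receptor and the kinases Jak2 and Tyk2. It had 104, 105 and 97.0 TPM in IL17B libraries and 97.5, 110.4 and 101.5 TPM in control libraries. The ranges overlapped, and the log2 fold change by edgeR was -0.02 with a SE of 0.06 and an adjusted p of 0.995. Its closest relative Ptpn2, encoding TCPTP, which acts on the kinase Jak1, was at 23.4 ± 1.93 TPM with IL17B and 23.3 ± 0.701 TPM in controls (SD, n = 3 each; log2 fold change -0.02, SE 0.07).

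The PEST phosphatases bind adaptors of the cytoskeleton and inhibit Src family signalling with the kinase Csk. Ptpn12 (PTP-PEST) had 60.8, 55.0 and 61.9 TPM in IL17B libraries and 57.4, 63.2 and 58.9 TPM in control libraries. Its relative Ptpn22, known as a risk gene of human autoimmunity, had 26.9, 26.9 and 27.3 TPM in IL17B libraries and 26.8, 24.8 and 24.5 TPM in control libraries. In TPM each IL17B library of Ptpn22 was above each control library, with 26.92 against 26.76 TPM at the nearest pair, while in normalised counts the groups overlapped. Its log2 fold change by edgeR was 0.09 with a SE of 0.06 and an adjusted p of 0.976, with an interval from 0.967-fold to 1.17-fold. Ptpn18, the most variable member above 10 TPM among the IL17B libraries, was at 43.7, 49.4 and 39.9 TPM there and at 46.9, 45.01 and 43.9 TPM in control libraries. Of the 50-base words of the Ptpn18 transcript, 17.1% also occur in the annotated gene model Gm28417, which has no row in the table.

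The PRL phosphatases are known for promoting cell growth and for binding the CNNM magnesium transporters. Ptp4a2, on chromosome 4, came next to Ptpn6 and Ptprc in level. It had 215, 207 and 219 TPM in IL17B libraries and 208, 220.3 and 201 TPM in control libraries, and the controls enclosed the IL17B libraries (edgeR log2 fold change of 0.02 with a SE of 0.05 and an adjusted p of 0.993). Ptp4a1 was at 40.3 ± 1.87 TPM with IL17B and 41.5 ± 3.40 TPM in controls (log2 fold change -0.05, SE 0.06). Of its 50-base words, 11.3% also occur in other annotated genes, none of which has a row in the table. Ptp4a3 was at 12.4 ± 0.737 TPM with IL17B and 12.4 ± 0.65 TPM in controls (SD, n = 3 each; log2 fold change 0.01, SE 0.09).

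Ptpn23, or HD-PTP, sorts receptors at endosomes with the ESCRT complexes and has little phosphatase activity. It had 54.0, 46.4 and 50.2 TPM in IL17B libraries and 48.3, 50.9 and 52.0 TPM in control libraries. Here IL17B replicates 1 and 2 lay on either side of the controls (edgeR log2 fold change of -0.02 with a SE of 0.05 and an adjusted p of 0.995). Ptpn9 (MEG2), which works on secretory vesicles, was at 19.0 ± 0.261 TPM with IL17B and 18.8 ± 0.512 TPM in controls. Ptprs, a proteoglycan receptor of the LAR class that is best known from neurons, was at 27.7 ± 0.795 TPM with IL17B and 26.5 ± 1.56 TPM in controls (SD, n = 3 each). Between 1 and 10 TPM lay the FERM domain phosphatases Ptpn21 and Ptpn4, the LAR gene Ptprf and Ptprn, besides Ptprv. Their log2 fold changes were -0.08, 0.07, 0.06 and -0.05.

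The members kept a stepped order of levels in TPM. Among the 24 genes with at least 1 TPM, the ranges over all 6 libraries overlapped for 11 of 23 pairs of neighbours. Ptpn6, Ptprc, Ptp4a2 and Ptpra were each separate from the next. The margin between Ptpn6 and Ptprc was narrow, with 285.8 TPM in the lowest library of Ptpn6 and 285.0 TPM in the highest of Ptprc. Ptprj and Ptpn1 did not differ beyond their spread. The 8 genes from Ptpn7 down to Ptpn11 formed a chain in which every neighbour overlapped the next. The median coefficient of variation of these 24 genes within a treatment was 5.59% with IL17B and 4.89% in controls.

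**Figure D3:**
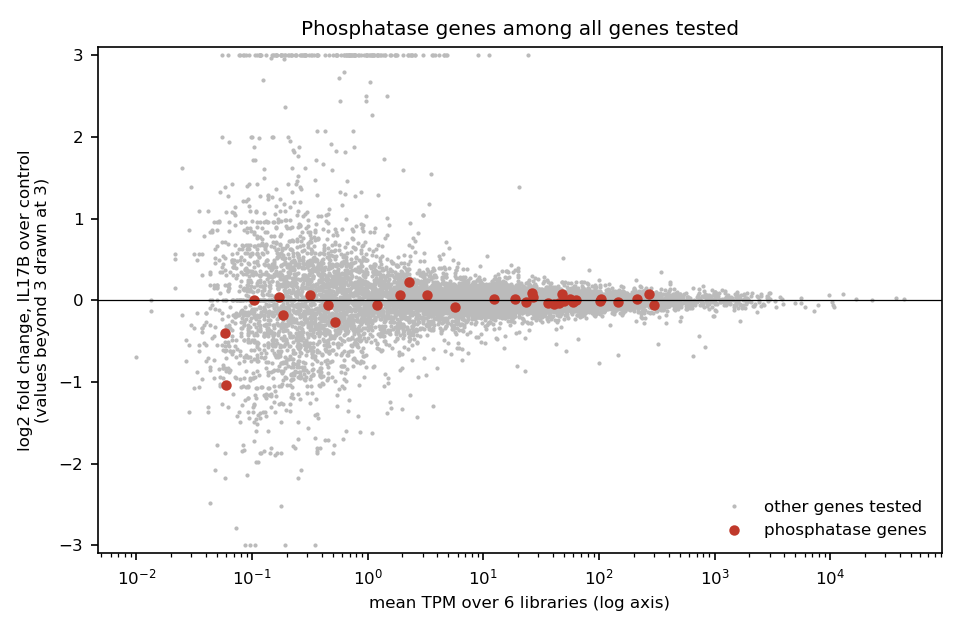
Mean TPM over the 6 libraries (log axis) against the log2 fold change, IL17B over control, of all 13866 tested genes (grey), with the 32 PTP genes in red. Values beyond 3 are drawn at 3, and the PTP genes above 10 TPM lie between -0.06 and 0.09.

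The remaining members were scarce. The 15 genes under 1 TPM together took 0.109% ± 0.00357 of the summed PTP level with IL17B and 0.122% ± 0.00833 in controls (SD, n = 3 each). By library it was 0.1055% to 0.1125% with IL17B and 0.1138% to 0.1305% in controls, ranges that did not overlap, and no test was made. They comprise all of the R2B class (Ptprk, Ptprm, Ptprt and Ptpru), which mediates cell adhesion in epithelia and nerve, and Ptprb, the VE-PTP of endothelium. The 7 genes that were not tested (Ptprb, Ptprh, Ptprn2, Ptprr, Ptprt, Ptprz1 and Ptpn5) had at most 3 counts in a library and at most 5 over all 6. Ptprg, a receptor-type PTP with a carbonic anhydrase-like domain, had the largest negative log2 fold change among those tested. Its counts were 3, 2 and 5 in the IL17B libraries and 6, 13 and 2 in the control libraries, in replicate order. Most of that difference lay in control replicate 2 (edgeR log2 fold change of -1.04 with a SE of 0.70 and an adjusted p of 0.976). With 1 library left out the log2 fold change ranged from -1.47, without control replicate 3, to -0.25, without control replicate 2. The FERM domain phosphatase Ptpn3 had 38, 19 and 32 counts with IL17B and 44, 31 and 33 in controls, and Ptpn13 had 3 to 5 with IL17B and 3 to 8 in controls. Their log2 fold changes of -0.27 and -0.40 had intervals from -0.92 to 0.37 and from -1.64 to 0.84. Ptprd and Ptpn14 were also highest in control replicate 2, at 16 and 26 counts. Ptpru was barely so, at 28 counts there against 27 in IL17B replicate 2 and in control replicate 1. Ptpn3, Ptpn13, Ptprm and Ptprk were highest in other libraries. The 17 fibroblast and stromal markers summed to 52.7, 47.9 and 44.4 TPM in IL17B libraries and to 57.4, 74.6 and 56.6 TPM in control libraries, likewise highest in control replicate 2. Their part in these counts was not tested.

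**Figure D4:**
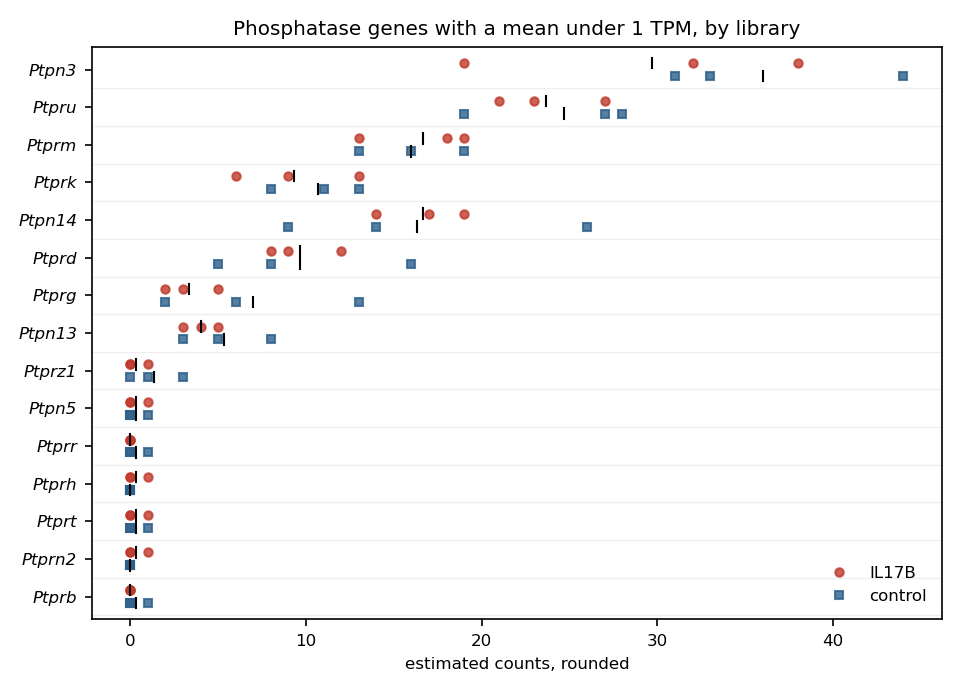
Estimated counts, rounded, of the 15 PTP genes with a mean under 1 TPM in each IL17B library (red circles) and each control library (blue squares), with a black bar at the mean of the 3 libraries. The treatments overlap in the 8 upper rows, and the 7 lower rows hold no more than 3 counts in any library.

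The partners of the PTPs were counted in 4 lists, of which edgeR called 0 genes. One list held receptors taken to recruit SHP-1 or SHP-2, and recruitment by each of them was not tested. Among its 22 tested genes, 2 had an unadjusted p under 0.05 (5.24% of all genes tested did), Cd72 and Siglec1, both lower with IL17B. The treatments were separate for 3 (9.92% of all genes tested), of which 1 was higher and 2 were lower. Cd72 and Siglec1 were not among these 3, and Sirpa was 1 of the 2 lower genes. The median log2 fold change of the list was -0.047. The most abundant were Lilrb4a, at 1529 ± 77.4 TPM with IL17B and 1633 ± 64.4 TPM in controls, and Sirpa, the receptor of CD47, at 1319 ± 26.4 TPM with IL17B and 1344 ± 22.4 TPM in controls (SD, n = 3 each). Cd72, a lectin known from B cells, had 335, 328 and 369 TPM in IL17B replicates 1, 2 and 3 and 456, 465 and 333 TPM in control replicates 1, 2 and 3 (edgeR log2 fold change of -0.28 with a SE of 0.11 and an adjusted p of 0.941). Siglec1, a sialic acid receptor that is on the list although it lacks the inhibitory motif itself, had 45.1, 41.0 and 37.9 TPM with IL17B and 57.6, 96.9 and 34.9 TPM in controls (edgeR log2 fold change of -0.62 with a SE of 0.27 and an adjusted p of 0.941). In both genes control replicate 3 lay among or below the IL17B libraries. The log2 fold change of Siglec1 was -0.19 without control replicate 2 and -0.91 without control replicate 3, not called in either. Clec4a2 and Pecam1 followed in order of p, with log2 fold changes of 0.14 and 0.18.

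Of 26 tested adaptors and ligands of the PTPs, 2 had an unadjusted p under 0.05, both higher with IL17B, and 1 was separate, against 5.24% and 9.92% of all genes tested. The median log2 fold change was 0.019. Thbs1, a secreted matrix glycoprotein, had 409, 384 and 362 TPM in IL17B replicates 1, 2 and 3 and 265, 270.3 and 373 TPM in control replicates 1, 2 and 3, so that control replicate 3 again lay with the IL17B libraries (edgeR log2 fold change of 0.34 with a SE of 0.12 and an adjusted p of 0.909). With 1 library left out its log2 fold change ranged from 0.26, without control replicate 1 or 2, to 0.52, without control replicate 3, and it was not called in any of these fits. Cnnm2, a magnesium transporter of the family that PRLs bind, had 21.2, 20.3 and 19.7 TPM with IL17B and 16.5, 17.7 and 19.5 TPM in controls. The treatments were separate (edgeR log2 fold change of 0.18 with a SE of 0.07 and an adjusted p of 0.941). The galectin genes Lgals3 and Lgals1 had log2 fold changes of -0.09 and -0.06, the adaptor gene Gab1 of 0.22 and Csk of -0.07. That of Gab1 was 0.08 without control replicate 1 and 0.38 without control replicate 3, not called in either.

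Of 33 tested kinases and other PTP substrates, 0 had an unadjusted p under 0.05, against 5.24% of all genes tested. The treatments were separate for 4 (9.92% of all genes tested), 2 in each direction, and the median log2 fold change was 0.016. Csf1r, the M-CSF receptor, had 2601, 2595 and 2554 TPM in IL17B libraries and 2328, 2485 and 2537 TPM in control libraries (edgeR log2 fold change of 0.07 with a SE of 0.05 and an adjusted p of 0.976). In TPM each IL17B library was above each control library, and in counts per normalised library they overlapped. Lcp2 (SLP-76) and Vav1 were separate in opposite directions, at log2 fold changes of 0.09 and -0.09. The log2 fold changes of Mapk3 and Igf1r were 0.06 and 0.19. The last list held genes from other families of cysteine-based phosphatases, whether or not each protein is active. Of the 33 tested, 1 had an unadjusted p under 0.05, against 5.24% of all genes tested, and the median log2 fold change was -0.011. The treatments were separate for 4, each higher with IL17B, as they were in that direction for 5.16% of all genes tested. This 1 was Pald1, the gene of paladin, at 10.0 ± 0.324 TPM with IL17B and 9.16 ± 0.505 TPM in controls (edgeR log2 fold change of 0.15 with a SE of 0.07 and an adjusted p of 0.941). Mtmr1, Ptpdc1 and Ssh2 followed at 0.12, 0.27 and 0.12, and the abundant Tns3 and Mtmr6 were at -0.01 and 0.05.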

How the data were processed

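Per the study's methods and the submitters' processing notes, the authors filtered single-end reads of 50 bases with SOAPnuke 1.5.2, mapped them to mouse GRCm38 with HISAT2 2.0.4, aligned them to coding genes with Bowtie2 2.2.5 and quantified them with RSEM 1.2.12. The deposited table holds estimated counts per gene, in which reads matching several genes are divided, and FPKM and TPM values that the authors computed from them, besides their group means, which were not used. Whether strand was preserved is not given in the sources used here.

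Estimated counts were rounded, genes whose counts summed to 15 or more across the 6 libraries were retained, and IL17B was compared with control by edgeR 4.0.16 (quasi-likelihood, TMM, Benjamini-Hochberg adjustment over 13866 genes, no block; limma 3.58.1, DESeq2 1.42.0 and R 4.3.3 in alternatives). Fold changes are IL17B over control. Intervals of 95% use the quasi-likelihood standard error. TPM served for levels. Separation was read from counts per normalised library. The fit was tested on simulated counts. All members, and of each partner list the 2 most abundant genes and the 4 with the smallest p, were named, the number per list having been reduced after values were seen. One gene that this rule selects is not reported here. Members and lists were chosen with earlier results of these data known. The loop search was for a histidine, a cysteine, 5 residues and an arginine, and matches of Ptpn9 and Ptpn13 outside the phosphatase domain were left out once their positions were seen. Positions are from RefSeq (GRCm38.p6).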

Additional observations from a re-analysis of the deposited data

How the results depend on the processing

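No PTP gene and no partner gene was called under any of the 17 alternatives, which were other scalings (DESeq2 size factors, library totals), DESeq2, limma-voom, filterByExpr, no filter, limma on log2 of TPM plus 1 or plus 0.1, each library left out, IL17B replicates 2 and 3 left out together, and a replicate block. Over all genes, the count called higher was 6 by DESeq2, 1 by limma on log2(TPM + 0.1) and 0 to 77 with a library left out, and the count called lower 0 to 9, the high values being those without IL17B replicate 1. The count of all genes with an unadjusted p under 0.05 was 312 by DESeq2 and 364 without IL17B replicates 2 and 3, against 726. Of the PTPs 0 to 2 passed that limit with a library left out, Ptprg and Ptprv without control replicate 3, where 6.77% of all genes did.

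No pairing by replicate number was seen: deviations of same-numbered libraries correlated at 0.0123, 0.0236 and -0.0257. IL17B replicate 3 correlated best with control replicate 1. The labels do not say whether samples were prepared in pairs, and correlations over 3 libraries per group cannot exclude it. With a replicate block 74 genes were called higher and 2 lower, none a PTP, and Ptpn7 was at 0.002.

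The sign of some log2 fold changes turned, none of them called. Ptpn7 was at 0.005 by limma-voom and 0.01 by limma on TPM at each pseudocount or without the filter, where Ptpn2 was at 0.01 and Ptp4a3 at -0.004. Without IL17B replicates 2 and 3, Ptpn7 was at 0.005, Ptpn23 at 0.05, Ptp4a3 at -0.05 and Ptpn21 at 0.08, the lone IL17B library being assumed to vary like the controls. With 1 library left out the log2 fold changes ranged from -0.01 to 0.04 for Ptp4a2, -0.05 to 0.05 for Ptp4a3, -0.05 to 0.02 for Ptpn1, Ptpn12 and Ptpn23, -0.14 to 0.04 for Ptpn18, -0.09 to 0.02 for Ptpn2, -0.09 to 0.08 for Ptpn7, -0.02 to 0.04 for Ptpn9, -0.005 to 0.04 for Ptpre, -0.01 to 0.12 for Ptprf, -0.01 to 0.05 for Ptprj, -0.10 to 0.004 for Lgals1 and -0.04 to 0.01 for Tns3, and the difference in the Ptpn6 to Ptpn11 ratio from -0.389 to 0.266. The cause was not tested. The 8 tested PTPs under 1 TPM had 28 to 197 counts over the 6 libraries, and their intervals reach past 1.5-fold.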
